A study of Mus musculus with 47 samples.

Results

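The comparison described here is between single mouse induced pluripotent stem cells (iPSCs) that expressed the Cast X chromosome only and iPSCs that expressed both X chromosomes, read on the autosomes. Of 47 cells analysed, 38 belonged to the comparison, 15 X-Cast O-Mus cells and 23 X-Mus X-Cast cells, where O stands for the X chromosome without allelic expression. The 9 remaining cells, X-Mus O-Cast, expressed the Mus X only and are given side by side. All cells carried label "iPSC" in 1 group, and the class was read from the column names of the deposited allelic count table. Of 13947 genes in that table, 13515 were autosomal, 12625 on chromosomes 2 to 19 and 890 on chromosome 1, which was read apart.

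Every cell came from a female hybrid of a Musculus mother (Mus), whose X carried an eGFP reporter, and a Castaneus father (Cast). In the study the iPSCs were derived from embryonic fibroblasts by doxycycline-induced, lentiviral expression of the factors Oct4, Sox2, Klf4 and c-Myc and were grown in serum and LIF, the cytokine that sustains mouse pluripotent cells. The cells were sorted onto 1 plate, and neither the labels nor the methods tie a cell to an animal, culture or clone. Such cells do not replicate a class. Differences are therefore given as values without a p-value, and a difference between classes cannot be told apart from one between the clones or cultures that the cells may stem from.

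In female mouse cells 1 X chromosome is normally silenced, and it is reactivated when somatic cells are reprogrammed to naive pluripotency. Female pluripotent cells with both X chromosomes active are known for low levels of DNA methylation and for a brake on MAPK signalling and on the exit from naive pluripotency, and they readily lose an X chromosome in culture. Germline genes, many of which act in meiosis, are a class whose CpG-rich promoters are methylated in somatic cells.

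The level of a gene in a cell was the sum of its Cast and Mus counts per 10000 allelic counts of that cell, called the normalised count here. The 38 cells held 112335 to 216451 allelic counts, with medians of 168885 in X-Cast O-Mus and 164722 in X-Mus X-Cast cells. In the median cell 1 count was worth 0.0592 and 0.0607 normalised counts, and a cell listed at 0 may by counting error alone hold 3 counts, 0.178 and 0.182 normalised counts. Genes with a count numbered 3612 to 5652 (median 4888) in X-Cast O-Mus and 4529 to 5799 (median 5022) in X-Mus X-Cast cells. Mitochondrial genes gave a median of 22.9% of counts in both classes. However, 2 X-Cast O-Mus cells had only 9.09% and 12.4% mitochondrial counts and together the most genes of their class, 5652 and 5467. A single further X-Cast O-Mus cell stood apart on chromosome 12, with 7.18% of its counts there on the Mus allele against 36.3% in the next lowest cell of the class. This was also the cell of its class with the highest Mus share on chromosome 1. Values without these cells are given where they touch a result. The 9 X-Mus O-Cast cells held 71682 to 212232 allelic counts (median 179357) and 2918 to 5425 genes with a count (median 4862). The cell of that class with the fewest counts also had the fewest genes.

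Markers of pluripotent cells were present in both classes. Of 15 such markers found among the autosomal genes, a median of 13 had a count in an X-Cast O-Mus cell and 14 in an X-Mus X-Cast cell. Their summed normalised count ranged from 43.3 to 105.7 (median 67.7) and from 48.3 to 119.0 (median 82.2), and the X-Cast O-Mus cell was the higher in 28.7% of pairs. Pou5f1, which encodes the core pluripotency factor Oct4, had a mean of 1.83 against 2.06 and was detected in 15 of 15 and 23 of 23 cells. Counts of its endogenous and delivered copies were not separated. Apart from Vim and Fn1, described with the markers of other cell types, fibroblast markers, those of the cells of origin, were below the count minimum, with 9 of 19 at 0 in the 38 cells, among them Col1a2, Postn, Dcn, Lum and Pdgfra.

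A total of 3706 genes on chromosomes 2 to 19 reached an average of 5 counts in the 38 cells. Their median log2 fold, with X-Mus X-Cast as the reference, was 0.04, and the 5th and 95th percentiles were −1.01 and 1.18. The mean was higher in X-Cast O-Mus cells for 53.4% of the genes. In X-Cast O-Mus cells 259 genes (6.99%) were at least 2-fold higher and 189 (5.10%) at least 2-fold lower. For 186 of these genes a single cell gave more than 25% of the summed level of the higher class. The share of the 345 pairs of 1 cell from each class in which the X-Cast O-Mus cell was the higher, with ties counted as 0.5, was used to find one-sided genes. It was at least 75% for 61 genes (1.65%) and at most 25% for 81 genes (2.19%). The ranges of both classes overlapped for all 3706 genes.

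Germline genes stood at the lower end of the distribution. Of 26 listed germline genes among the autosomal genes, 12 passed the count minimum, and of these 7 were at least 2-fold lower and 0 at least 2-fold higher in X-Cast O-Mus cells, where 5.10% and 6.99% of all tested genes were. Their median log2 fold was −1.17. A gene that is high in 1 class passes a minimum more readily, so these counts describe the 12 genes alone. Over all 26 genes, the summed normalised count was 12.5 to 33.2 (median 23.6) in X-Cast O-Mus cells and 14.2 to 88.5 (median 35.5) with both X chromosomes, and the X-Cast O-Mus cell was the higher in 13.04% of pairs. It was 5.02 to 17.7 (median 13.1) in X-Mus O-Cast cells. A median of 10 against 13 germline genes had a count per cell, against 8 in the X-Mus O-Cast class. Without Rpl10l, Tuba3a and Tuba3b, whose values are uncertain because near-identical copies can share reads, the other 23 genes summed to 3.78 to 20.4 (median 10.04), 5.74 to 35.8 (median 13.9) and 1.53 to 12.9 (median 7.17) in the 3 classes, and the X-Cast O-Mus cell was the higher in 24.6% of pairs. With the mean of log-transformed values in place of the mean, the median of the 12 genes was −0.40. Then 1 of them, the uncertain Rpl10l, was at least 2-fold lower. Rpl10l and Tuba3b were also among the 7 genes at least 2-fold lower by the mean. Without the cell apart on chromosome 12 the number of genes at least 2-fold lower was 7, without the 2 cells low in mitochondrial counts it was 7, and without the 3 X-Cast O-Mus cells with the fewest genes it was 6. Without the highest cell of the higher class for each gene it was also 6, with a median of −0.97.

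Promoter sequences are shown for 3 of these genes, since germline promoters are where DNA methylation is known to act. The 250 bases before the start of each gene are from RefSeq (GRCm38.p6, the mm10 assembly), read 5′ to 3′ on the strand of the gene, with CpG dinucleotides in capitals. Hormad1 (chr3:95559427-95559676, plus strand) encodes a protein of the unsynapsed meiotic chromosome axis, Sycp1 (chr3:102936101-102936350, minus strand) the transverse filament protein of the synaptonemal complex, and Dazl (chr17:50293621-50293870, minus strand) an RNA-binding protein of germ cells.
Hormad1: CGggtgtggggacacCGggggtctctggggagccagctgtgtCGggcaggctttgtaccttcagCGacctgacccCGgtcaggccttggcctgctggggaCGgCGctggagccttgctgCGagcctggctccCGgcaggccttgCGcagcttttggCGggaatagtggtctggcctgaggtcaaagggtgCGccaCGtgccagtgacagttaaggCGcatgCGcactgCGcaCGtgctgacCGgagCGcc
Sycp1: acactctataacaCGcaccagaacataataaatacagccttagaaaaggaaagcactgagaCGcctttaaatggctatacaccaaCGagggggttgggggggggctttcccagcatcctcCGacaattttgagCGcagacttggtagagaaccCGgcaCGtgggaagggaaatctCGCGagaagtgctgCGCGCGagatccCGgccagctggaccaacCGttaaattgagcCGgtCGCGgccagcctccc
Dazl: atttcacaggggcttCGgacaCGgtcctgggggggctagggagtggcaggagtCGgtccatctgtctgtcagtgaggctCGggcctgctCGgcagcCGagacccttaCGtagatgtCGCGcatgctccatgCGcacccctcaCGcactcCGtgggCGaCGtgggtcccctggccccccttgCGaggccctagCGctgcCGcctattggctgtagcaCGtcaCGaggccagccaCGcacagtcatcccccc
The windows hold 19, 17 and 20 CpGs. Of the 3706 tested genes 2998 had a promoter in the RefSeq table, with a median of 17 CpGs and quartiles of 11 and 23. The 10 matched germline genes had a median of 16. The letters CACGTG, a palindrome and so the same on both strands, which form the E-box bound by several basic helix-loop-helix factors, were found in 3 of the 10 (Hormad1, Sycp1 and Fkbp6) and in 9.71% of all 2998 windows.

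Hormad1 was detected in 23 of 23 X-Mus X-Cast and 11 of 15 X-Cast O-Mus cells. Its normalised counts ranged from 0 to 2.64 (median 0.356) in X-Cast O-Mus, from 0.491 to 4.58 (median 1.92) in X-Mus X-Cast and from 0.208 to 2.44 (median 0.571) in X-Mus O-Cast cells. Among the 15 X-Cast O-Mus cells 8 were under the lowest X-Mus X-Cast cell, while 2 exceeded the X-Mus X-Cast median. The log2 fold of the means was −1.50, from 170 counts (95% Poisson interval 145.4 to 197.6) and 729 counts (677.0 to 783.9) summed over the classes. These intervals cover counting error only, and as reads over several SNPs can be counted more than once they may be too narrow.

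Dazl varied more among cells. It ranged from 0 to 7.16 (median 0.298) in X-Cast O-Mus and from 0 to 15.5 (median 1.94) in X-Mus X-Cast cells, with a log2 fold of −2.10. It was detected in 10 of 15 and 17 of 23 cells, and a single X-Cast O-Mus cell, at 7.16, exceeded the X-Mus X-Cast median. In X-Mus O-Cast cells 3 of 9 had a count, with a highest value of 1.14. Sycp1 had counts in 5 of 15 and 14 of 23 cells, with highest values of 0.643 and 5.33 and a log2 fold of −2.88, and 1 cell gave 38.9% of the X-Mus X-Cast sum. Tex15, a factor of meiotic recombination and transposon silencing, was detected in 2 of 15 and 15 of 23 cells and had a log2 fold of −2.26. Syce1, another synaptonemal complex protein, had counts in 5 of 15 and 17 of 23 cells and a log2 fold of −1.30. In the plot of single cells both classes thus contained cells with and without these transcripts, and the highest values lay in X-Mus X-Cast cells. Most X-Cast O-Mus cells had no count of Sycp1, of Tex15 or of Syce1, but many X-Mus X-Cast cells also had few or none.

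**Figure D1:**
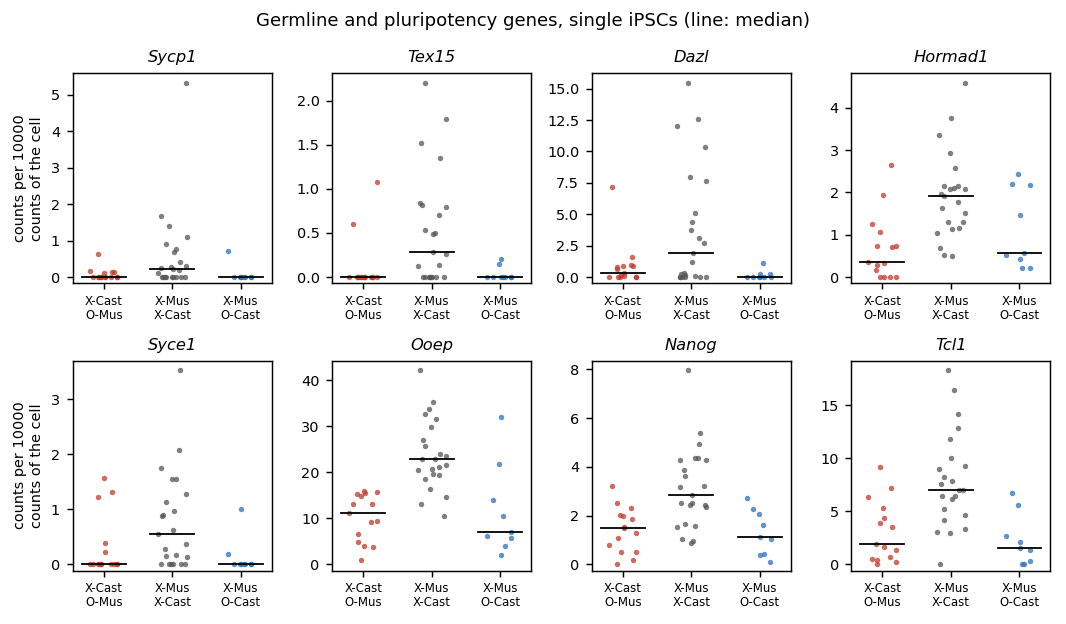
Normalised counts (allelic counts per 10000 counts of the cell, y axis) of 8 genes in single iPSCs of the 3 classes (x axis), 1 point per cell, with the median as a line. For Ooep 7 of 15 X-Cast O-Mus cells lie under the lowest X-Mus X-Cast cell. The highest values of Dazl, Sycp1, Tex15 and Syce1 are those of X-Mus X-Cast cells, and cells at 0 are found in each class.

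The other germline members differed less or are uncertain. Rpl10l, a testis-expressed copy of the ribosomal protein gene Rpl10, ranged from 0.647 to 8.90 (median 3.36) in X-Cast O-Mus and from 2.75 to 17.6 (median 8.12) in X-Mus X-Cast cells, and 6 X-Cast O-Mus cells lay under the lowest X-Mus X-Cast cell. Its log2 fold was −1.29, and −1.26 without the cell apart on chromosome 12. Rpl10l is nearly identical to the X-linked Rpl10, and the testis alpha-tubulin genes Tuba3a and Tuba3b to each other, so reads may be shared between the copies and their values are uncertain. Tuba3b had a log2 fold of −1.05, or −0.89 once the X-Mus X-Cast cell with most Tuba3b was left out, and Tuba3a of −0.80. Smc1b, the meiotic cohesin subunit, had −0.57 and Fkbp6, which acts in the piRNA pathway, −0.62. The germ cell and embryo gene Tex19.1, at −0.09, and Rnf17, a tudor protein of germ cells and the highest member at 0.30, lay near the median of all genes.

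Ooep was the gene with the smallest share of pairs, 5.22%. It lies at chr9:78376109-78378725 (mm10, minus strand) and encodes an oocyte-expressed protein of the subcortical maternal complex. Its normalised counts ranged from 0.865 to 15.9 (median 11.2) in X-Cast O-Mus cells, from 10.6 to 42.3 (median 22.8) in X-Mus X-Cast cells and from 2.01 to 32.1 (median 7.05) in X-Mus O-Cast cells. The value of 32.1 was that of the X-Mus O-Cast cell with the fewest counts, 71682. None of the 15 X-Cast O-Mus cells reached the X-Mus X-Cast median, and 7 lay under the lowest X-Mus X-Cast cell. The means were 10.3 and 23.8, a 2.33-fold difference resting on 2571 (2473 to 2672) and 8995 (8810 to 9183) summed counts. The 2 X-Cast O-Mus cells low in mitochondrial counts were among the lowest for Ooep, at 0.865 and 3.93, and the log2 fold was −1.22 with and −1.06 without them.

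Naive pluripotency genes diverged among themselves. Of 21 members that passed on chromosomes 2 to 19, 5 were at least 2-fold lower and 1 was at least 2-fold higher, against 5.10% and 6.99% of all tested genes, with a median log2 fold of −0.17. With the mean of log-transformed values 1 of them, Tcl1, was at least 2-fold lower and 0 were higher, and the median was −0.11. Nanog (chr6:122707489-122714633, mm10), a homeodomain factor of naive pluripotency, ranged from 0 to 3.23 (median 1.49) in X-Cast O-Mus and from 0.898 to 7.96 (median 2.87) in X-Mus X-Cast cells. Only 1 X-Cast O-Mus cell exceeded the X-Mus X-Cast median, 5 lay under the lowest X-Mus X-Cast cell, and the log2 fold was −1.14. Without the 3 X-Cast O-Mus cells with the fewest genes Nanog no longer reached 2-fold. Tcl1, a co-activator of the kinase Akt, ranged from 0 to 9.15 (median 1.96) and from 0 to 18.3 (median 7.03), a log2 fold of −1.34 that was −1.24 without the cell apart on chromosome 12. Klf5, a Krüppel-like factor, had a log2 fold of −1.55 and was detected in 12 of 15 and 23 of 23 cells.

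Pecam1, an adhesion molecule of naive cells, had a log2 fold of −1.55 and Tbx3, a T-box factor, of −1.13. Prdm14, a repressor that keeps naive cells hypomethylated, lies on chromosome 1 and had −1.23. Klf4, one of the reprogramming factors, had −0.99. The core factors stood near the median of all genes, Pou5f1 at −0.17 and Sox2 at −0.12. Counts of endogenous and delivered copies were not separated for Klf4, Pou5f1 or Sox2. Lin28a, which binds the let-7 precursors, was the highest member at 1.24. Esrrb (0.58) and Dppa3 (0.87) were higher in the mean, but 1 cell gave 39.7% of the X-Cast O-Mus sum of Dppa3. Of the 21 members 14 were lower and 7 higher in the mean. Over all 27 autosomal members of the list the summed normalised count was 53.3 to 153.6 (median 87.3) in X-Cast O-Mus and 77.5 to 152.9 (median 110.8) in X-Mus X-Cast cells. In 24.6% of pairs the X-Cast O-Mus cell was the higher. Without the 2 cells low in mitochondrial counts the median of the list was −0.42.

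In the X-Mus O-Cast cells, which are compared with the same 23 X-Mus X-Cast cells and so share the control, log2 folds were −1.05 for Ooep, −1.26 for Nanog, −1.82 for Tcl1, −0.76 for Hormad1 and −4.37 for Dazl. Of the other named lower genes, Serpinb6c (−2.92), Aga (−1.88), Ubxn2a (−1.25), Rpl10l (−1.21) and Klf5 (−1.13) were also at least 2-fold lower in X-Mus O-Cast cells. Some differed less there, with −0.04 for Fignl1, −0.29 for Adat2, −0.42 for Slc10a7, −0.44 for Hspb1 and −0.61 for Afg3l2. Spcs3 had the opposite sign, at 0.62. On chromosomes 2 to 19 the X-Mus O-Cast class had 260 genes (7.02%) at least 2-fold higher and 386 (10.4%) at least 2-fold lower than X-Mus X-Cast cells. The tested genes were chosen on the 38 cells, which include the X-Mus X-Cast but not the 9 X-Mus O-Cast cells. Genes high only in X-Mus O-Cast cells can therefore be missed, so these counts are no measure of direction.

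Other lower genes with a one-sided difference had varied functions. Serpinb6c, a serine protease inhibitor, had means of 0.501 and 3.42, a 6.83-fold difference, and none of the X-Cast O-Mus cells exceeded the X-Mus X-Cast median of 3.04. Members of this serpin cluster resemble each other, so its counts may include reads of its neighbours. Hspb1, a small heat shock protein, ranged from 0.749 to 8.31 (median 2.72) and from 2.07 to 13.8 (median 7.74), a log2 fold of −1.23. It was 1 of 20 tested chaperones at least 2-fold lower, the share of all tested genes (5.10%). Afg3l2, a mitochondrial protease subunit, was detected in 7 of 15 and 21 of 23 cells with a log2 fold of −2.66. Spcs3 of the signal peptidase (−1.77), the lysosomal enzyme Aga (−2.06), the tRNA deaminase subunit Adat2 (−1.25), the recombination factor Fignl1 (−1.24), Slc10a7 (−1.85) and Ubxn2a (−1.29) completed the 15 lower genes. Of these genes Afg3l2, Slc10a7 and Spcs3 reached the count minimum through the X-Mus X-Cast class. Their summed counts were 34, 52 and 73 in X-Cast O-Mus and 315, 296 and 378 in X-Mus X-Cast cells.

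Of 11 tested hypoxia response genes 4 were at least 2-fold lower and 1 at least 2-fold higher, against 5.10% and 6.99% of all tested genes, with a median of −0.30 that was −0.77 without the 3 X-Cast O-Mus cells with the fewest genes. The lower members were Ndrg1 (−3.07), Ankrd37 (−2.65), the glucose transporter Slc2a1 (−1.86) and Ddit4 (−1.31), an inhibitor of mTORC1. Over all 17 listed genes the summed level had medians of 5.77 and 8.50, and the X-Cast O-Mus cell was the higher in 41.7% of pairs. The lower members rested on few cells, however, and Ndrg1 and Ankrd37 reached the count minimum through the X-Mus X-Cast class. Ndrg1 was detected in 2 of 15 and 9 of 23 cells and Ankrd37 in 4 of 15 and 16 of 23, with highest values of 3.43 and 13.5. Slc2a1 was more widely detected, in 10 of 15 and 22 of 23 cells, with medians of 0.397 and 0.994 and 22.2% of pairs. Ero1l, an oxidase of the endoplasmic reticulum, was 1.29 higher on the log2 scale, and 0.85 higher without the X-Cast O-Mus cell with most of it. With the mean of log-transformed values 0 of the 11 genes were past 2-fold.

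Of 18 tested glycolysis genes 1 was at least 2-fold lower and 2 were at least 2-fold higher, shares of 5.56% and 11.1% against 5.10% and 6.99% of all tested genes, with a median of −0.23. The most abundant enzymes Eno1, Ldha, Aldoa and Pkm had log2 folds of −0.07, −0.21, −0.09 and −0.03. Less abundant were Pfkp (−0.61), Gpi1 (−0.62) and Gapdh (0.07). Of the 18 members 13 were lower and 5 higher in the mean. Ldhb, the heart-type lactate dehydrogenase subunit, was the highest at 1.73, and 1 cell gave 28.8% of its X-Cast O-Mus sum, without which it was at 1.34. Aldoc, the other higher member, was at 1.11 and at 0.76 without its highest X-Cast O-Mus cell.

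**Figure D2:**
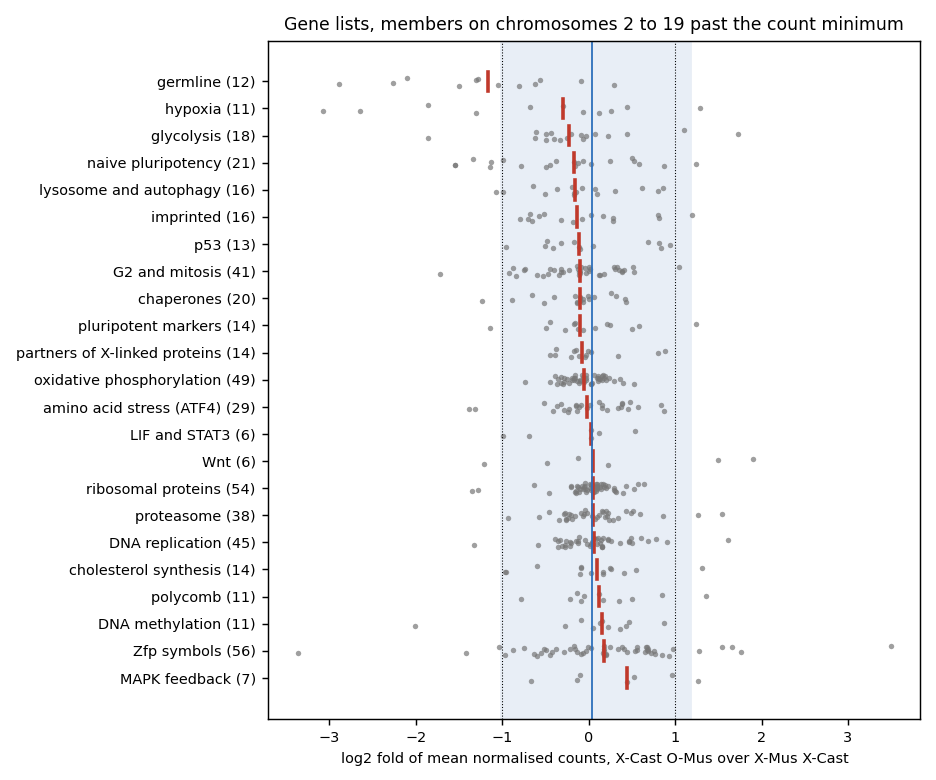
Log2 fold of mean normalised counts (x axis) for the members of each gene list with at least 6 tested members (y axis, number of tested members in parentheses), 1 point per gene, with the list median in red. The blue line is the median of all 3706 tested genes, the shaded band their 5th to 95th percentile, and dotted lines mark 2-fold. The band describes single genes and is no measure for a list median. The germline median of −1.17 is the lowest of these lists, followed by hypoxia (−0.30), and that of MAPK feedback (0.45) the highest.

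Among higher genes, Cdk5rap3 separated the classes most. It lies at chr11:96907426-96916496 (mm10, minus strand) and encodes an adaptor of the UFM1 protein modification pathway. Normalised counts ranged from 1.14 to 5.34 (median 2.44) in X-Cast O-Mus, from 0 to 1.93 (median 0.985) in X-Mus X-Cast and from 0 to 4.57 (median 2.28) in X-Mus O-Cast cells. All 15 X-Cast O-Mus cells exceeded the X-Mus X-Cast median and 13 exceeded the top X-Mus X-Cast value. The means of 2.79 and 1.04 differed 2.69-fold, and the X-Cast O-Mus cell was the higher in 96.2% of pairs.

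Fstl1, a secreted glycoprotein that modulates BMP and TGF-beta signalling, ranged from 0 to 3.27 (median 0.818) and from 0 to 1.12 (median 0.120), with a log2 fold of 2.45 and 89.3% of pairs. The gene was detected in 14 of 15 and 13 of 23 cells. It reached the count minimum through the X-Cast O-Mus class, with 270 and 80 summed counts. Fblim1, or migfilin, a filamin-binding protein of cell adhesions, ranged from 3.88 to 24.6 (median 11.7) and from 0 to 9.99 (median 5.38), and 11 X-Cast O-Mus cells exceeded the top X-Mus X-Cast value. Bscl2, the lipid droplet protein seipin, had means of 1.90 and 0.760 and Usp28, a deubiquitinase, of 1.56 and 0.456. Log2 folds in X-Mus O-Cast cells, against the same X-Mus X-Cast cells, were 1.21 for Cdk5rap3, 2.15 for Fstl1, 0.49 for Fblim1, 1.33 for Bscl2 and 1.09 for Usp28. Cabin1 (−0.11), Tmem250-ps (−0.03) and Phf20 (0.21), also among the 15 higher genes, stood near 0 in that class. The mean of Tmem250-ps there rested on 1 cell at 6.84, with the next at 1.11. The X-Mus O-Cast cell had more Tmem250-ps in 37.0% of pairs with X-Mus X-Cast cells.

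**Figure D3:**
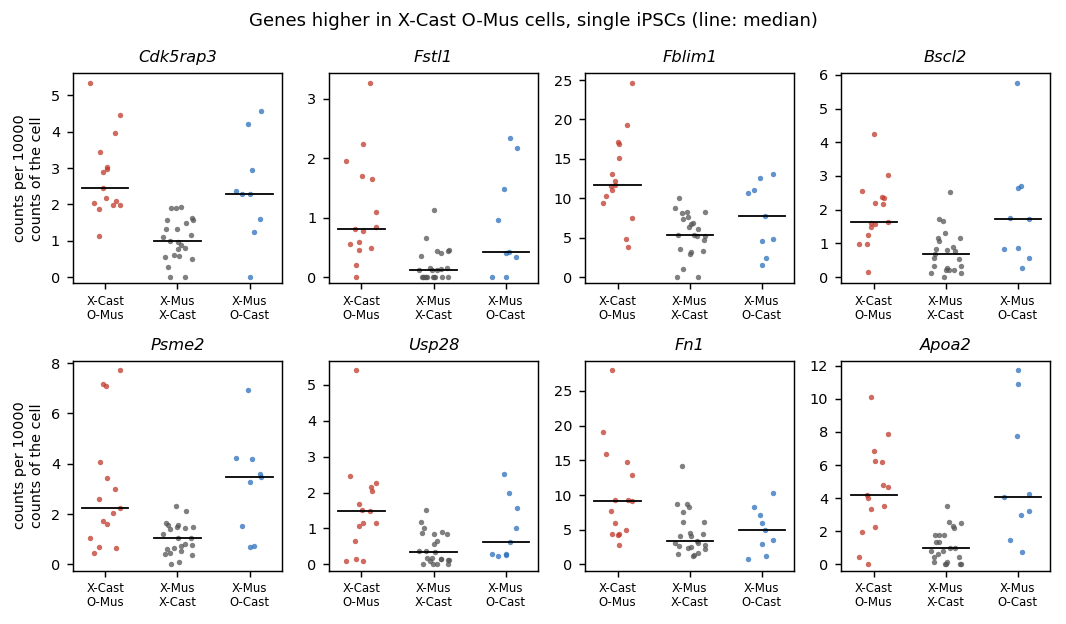
Normalised counts (allelic counts per 10000 counts of the cell, y axis) of 8 genes with higher means in X-Cast O-Mus cells, by class (x axis), 1 point per cell and the median as a line. For Cdk5rap3 13 of 15 X-Cast O-Mus cells exceed each X-Mus X-Cast cell, and for Fblim1 11 do. Fn1 and Apoa2 are chromosome 1 genes.

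In the proteasome list 2 of 38 members were at least 2-fold higher and 0 lower, no larger a share than the 6.99% of all tested genes. The 2 members were the chains of the PA28 activator. Psme2 ranged from 0.462 to 7.72 (median 2.23) and from 0 to 2.32 (median 1.05), with a log2 fold of 1.54 and 80.3% of pairs. Psme1, its neighbour on chromosome 14, had a log2 fold of 1.26 and 77.4% of pairs. Psmb10, a catalytic subunit of the immunoproteasome, followed at 0.86, also with 77.4% of pairs. The median over the list was 0.05, and constitutive catalytic subunits such as Psmb5 (−0.16), Psmb6 (0.12) and Psmb7 (−0.29) stood near it. In X-Mus O-Cast cells Psme1 and Psme2 had log2 folds of 1.60 and 1.61.

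The remaining higher genes of the 15 were of mixed function. They comprised Cabin1 (1.65), a calcineurin inhibitor, Phf20 (1.41), a reader subunit of a histone acetyltransferase complex, the glutathione transferase Gstm2 (1.77), the iron-sulphur cluster protein Glrx5 (1.15), the ciliary transition zone gene B9d1 (1.27), the sugar nucleotide hydrolase Nudt14 (1.22), the signalling adaptor Blnk (1.09), 9430038I01Rik (1.62) and the noncoding Tmem250-ps (1.28). Glrx5 was below 2-fold without the highest cell of each class, and Glrx5 (0.89) and Blnk (0.93) without the highest X-Cast O-Mus cell. Without the 3 X-Cast O-Mus cells with the fewest genes Glrx5 and Blnk were below 2-fold. Gstm2 reached the count minimum through the X-Cast O-Mus class, with 161 and 72 summed counts.

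Of 11 tested genes of the DNA methylation machinery 1 was at least 2-fold lower, Apobec2 (−2.01), a cytidine deaminase family member detected in 2 of 15 and 13 of 23 cells, and 0 were higher, against 5.10% and 6.99% of all tested genes. The maintenance factors Dnmt1 (0.43) and Uhrf1 (0.16), the de novo methyltransferase Dnmt3b (0.14), its cofactor Dnmt3l (0.36) and the dioxygenases Tet1 (0.22) and Tet2 (0.05) all lay within 2-fold. Imprinted genes had a median of −0.13 over 16 members, with Peg3, a paternally expressed zinc finger gene, at 1.19 and 0 members at least 2-fold lower. Peg3 was higher on the Cast allele (1.36), which is the paternal one, and had 2 and 28 counts of the Mus allele summed over the classes. Polycomb genes had a median of 0.12 over 11, with Pcgf3 (1.36) as the 1 member past 2-fold. A single cell gave 51.2% of the X-Cast O-Mus sum of Pcgf3, and its log2 fold was 0.42 without that cell.

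The 7 tested MAPK feedback genes had a median of 0.45, with Egr1, an immediate early factor, at 1.27 (0.88 without the highest X-Cast O-Mus cell) and Dusp1, a MAPK phosphatase, at −0.67. That median was −0.01 without the 2 X-Cast O-Mus cells low in mitochondrial counts and 0.01 without the 3 with the fewest genes. Of 26 listed genes 19 did not reach the count minimum. Nuclear genes of oxidative phosphorylation (49 members, median −0.05) had 0 members past 2-fold in either direction, where 6.99% of all tested genes were higher and 5.10% lower. Ribosomal protein genes (54 members, median 0.05) had 2 lower members, Rpl39l (−1.35) and Rpl10l, and 0 higher, and the lower share of 3.70% was under that of all tested genes. DNA replication genes (45 members, 0.06), G2 and mitosis genes (41 members, −0.10) and p53 target genes (13 members, −0.11) held at most 1 member past 2-fold in each direction, smaller shares than those of all tested genes.

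Amino acid stress genes had a median of −0.01 over 29 members, with Nupr1 (−1.38) and the cationic amino acid transporter Slc7a1 (−1.31) at least 2-fold lower, a share of 6.90% near the 5.10% of all tested genes. Chaperones had a median of −0.10, lysosome and autophagy genes −0.15 over 16 members with Lamp1 (−1.07) as the lowest, and cholesterol synthesis genes 0.10 over 14 members with Lss (1.31) as the highest. Without the highest cell of the higher class the log2 folds of Lamp1 and Lss were −0.96 and 0.84. Autosomal partners of X-linked proteins had a median of −0.08 over 14 members, 0 of them past 2-fold. Of 56 genes with Zfp symbols 5 were at least 2-fold higher and 3 lower, near the 6.99% and 5.10% of all tested genes, with a median of 0.18. Of 6 Wnt genes (median 0.05) Znrf3 (1.91) and Lef1 (1.501) were higher and Tcf7l1 (−1.22) lower, against 6.99% and 5.10% of all tested genes, and with the mean of log-transformed values 0 of them passed 2-fold. Of 6 LIF and STAT3 genes (median 0.03) 0 passed 2-fold. The 3 tested BMP and Nodal genes had a median of −0.49 with Smad3 at 1.31, which was 0.88 without the highest X-Cast O-Mus cell, and the 3 tested genes of primed cells and early lineages 0.57 with Lef1 as the highest. Of 34 listed genes of the cleavage-stage-like state, 0 were among the genes analysed here, nor did a search for symbols that start with Mrpl or Mrps, the mitochondrial ribosomal proteins, find any of them.

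Markers of fibroblasts and of primitive endoderm were examined as signs of other cell types. Vim, an intermediate filament gene and a fibroblast marker, ranged from 0 to 9.02 (median 2.43) and from 0 to 3.48 (median 1.06), with a log2 fold of 1.37, and of −0.40 in X-Mus O-Cast cells. The laminin chains Lama1 (1.63) and Lamb1 (1.55), which also mark primitive endoderm, were detected in 9 and 13 of 15 X-Cast O-Mus and in 8 and 7 of 23 X-Mus X-Cast cells, and 1 cell gave 40.4% and 31.3% of their X-Cast O-Mus sums, without which their log2 folds were 0.99 and 1.11. Sparc, a matrix protein, had a log2 fold of 0.21. The summed level of all 14 primitive endoderm markers was 5.34 to 22.3 (median 10.9) in X-Cast O-Mus and 1.82 to 15.9 (median 6.93) in X-Mus X-Cast cells, the X-Cast O-Mus cell was the higher in 77.1% of pairs, and 4 and 3 of the markers had a count in the median cell. Gata6, which defines that lineage, was at 0. The 19 fibroblast markers summed to 4.36 to 31.3 (median 11.5) and 1.52 to 15.4 (median 5.39), with 2 markers detected in the median cell of each class and the X-Cast O-Mus cell higher in 85.2% of pairs. This sum was nearly all Fn1 and Vim. Without them the 17 other markers had medians of 0 and 0.109, and the X-Cast O-Mus cell was the higher in 47.1% of pairs. The 10 trophoblast markers summed to 0 to 3.87 (median 0.646) and 0 to 3.82 (median 1.40), with the X-Cast O-Mus cell higher in 39.9% of pairs. The part of such cells in the differences above was not tested.

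Counting the alleles apart showed on which autosomal copy a difference lay. The alleles share their cells and are not replicates. In 3585 genes with counts of each allele in each class, 124 (3.46%) were at least 2-fold higher and 86 (2.40%) at least 2-fold lower on both alleles. Ooep had log2 folds of −1.44 on the Cast and −0.95 on the Mus allele, Hormad1 of −1.40 and −1.59, Dazl of −1.66 and −2.57, Nanog of −1.42 and −0.92, and Cdk5rap3 of 1.71 and 1.23. Klf5 was lower mainly on the Mus allele, with −0.72 against −2.22, and Smc1b had opposite signs, 0.79 and −2.26. Of the 12 germline genes 9 were lower on both alleles in the mean, as were 29.4% of the 3585 genes. However, 11 of the 12 were already lower in the sum of both alleles, while the 3585 include genes higher in the sum. The 2 shares are therefore not comparable.

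**Figure D4:**
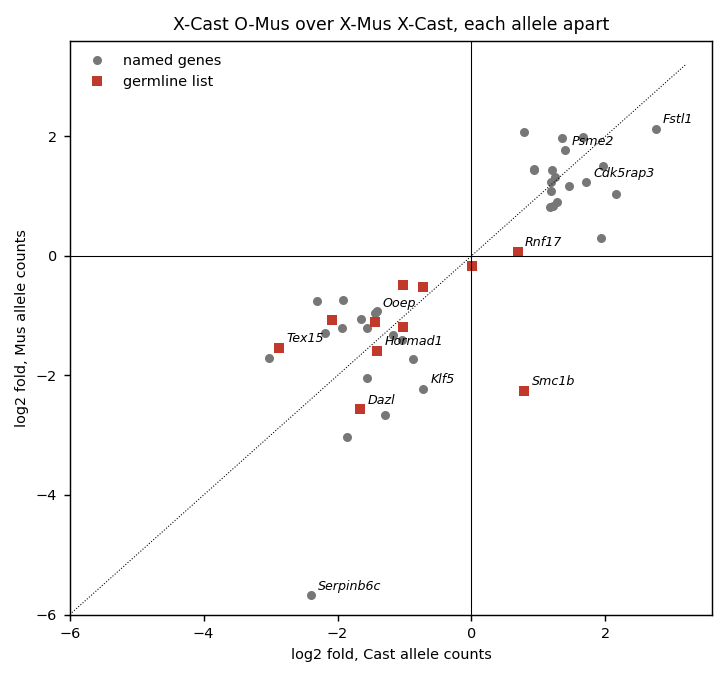
Log2 fold of mean normalised counts in X-Cast O-Mus cells, relative to X-Mus X-Cast cells, for the Cast allele (x axis) and the Mus allele (y axis) of the named genes (grey) and the tested germline genes (red squares), with equality as a dotted line. Genes with 3 or fewer counts of an allele in a class are left out, and the named genes were chosen on the sum of both alleles, so their agreement in sign is no result. Smc1b, at 0.79 and −2.26, has opposite signs.

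Chromosome 1 was read apart because its share of counts differs between cells, and its Mus share is also low. A median of 30.6% of its counts in X-Cast O-Mus and 30.7% in X-Mus X-Cast cells were on the Mus allele, while medians over all autosomes outside chromosome 1 were 43.8% in both. Chromosome 14 came near it, with medians of 33.8% and 33.1%. In each of the 2 classes 1 cell exceeded 40%, with 43.96% and 47.6%. Chromosome 1 gave 6.06% to 9.93% (median 8.29%) of autosomal counts in X-Cast O-Mus, 5.92% to 10.1% (median 8.80%) in X-Mus X-Cast and 5.29% to 9.43% (median 7.47%) in X-Mus O-Cast cells. In 20.9% of pairs the X-Cast O-Mus cell had the higher share, and the ratio of the medians was 0.942. It was 0.931 without the 20 genes with most counts, 0.948 on the Cast and 0.918 on the Mus allele, and 0.944 without the cells above 40%. The cells with the highest Mus shares also had the lowest chromosome 1 shares of their classes, 6.06% and 5.92%.

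Of 308 tested chromosome 1 genes 19 (6.17%) were at least 2-fold higher and 29 (9.42%) at least 2-fold lower, with a median log2 fold of −0.10. The mean was higher for 41.9%, the share of pairs at least 75% for 4 genes (1.30%) and at most 25% for 8 (2.60%), and the class ranges overlapped for all 308. In X-Mus O-Cast cells 16 genes (5.19%) were at least 2-fold higher and 47 (15.3%) lower. As on the other autosomes, the tested genes were chosen without the X-Mus O-Cast cells, so these counts are no measure of direction. Apoa2, an apolipoprotein, had the most one-sided difference, from 0 to 10.1 (median 4.17) in X-Cast O-Mus and from 0 to 3.54 (median 0.963) in X-Mus X-Cast cells, and 9 X-Cast O-Mus cells exceeded the top value of the other class. Its log2 fold of 1.94 was 2.18 in X-Mus O-Cast cells. Fn1, or fibronectin, ranged from 2.78 to 28.02 (median 9.18) and from 1.21 to 14.1 (median 3.38), a log2 fold of 1.16, and Lamc1, the laminin chain that pairs with Lama1 and Lamb1, had 1.01. Without the 3 X-Cast O-Mus cells with the fewest genes Fn1, Lamc1 and Dyrk3 were below 2-fold, and without the highest X-Cast O-Mus cell they were at 0.97, 0.89 and 0.82. Ppip5k2 (1.23), an inositol phosphate kinase, and Dyrk3 (1.05), a protein kinase, were the other higher genes, and Dyrk3 was below 2-fold also without the cell apart on chromosomes 1 and 12, without the cells above 40% and without the highest cell of each class. In X-Mus O-Cast cells the log2 folds of Fn1, Dyrk3 and Ppip5k2 were 0.14, 0.06 and −0.52.

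Gsta3, a glutathione transferase, was the most one-sided lower gene of chromosome 1. It ranged from 0 to 8.23 (median 1.53) in X-Cast O-Mus and from 0.372 to 14.2 (median 4.74) in X-Mus X-Cast cells, and 7 X-Cast O-Mus cells lay under the lowest X-Mus X-Cast cell. It belongs to a family of similar genes whose reads may be shared. The nuclear receptor coactivator Ncoa2 (−3.65, 4 of 15 and 17 of 23 cells), 1700019A02Rik (−1.74), the mitochondrial RNA-binding gene Fastkd2 (−1.57) and the COP9 signalosome gene Cops7b (−1.10) followed. Cops7b was at −0.96 without the highest X-Mus X-Cast cell. Ncoa2, 1700019A02Rik and Fastkd2 reached the count minimum through the X-Mus X-Cast class. Their summed counts were 11, 47 and 55 in X-Cast O-Mus and 228, 212 and 254 in X-Mus X-Cast cells.

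The share of chromosome 1 was not the one that differed most. The ratio of median shares ranged from 0.927 for chromosome 18 to 1.089 for chromosome 5. Without the 20 genes with most counts on each chromosome these ratios were 0.998 and 1.054, and the ratios of all autosomes ranged from 0.916 for chromosome 3 to 1.120 for chromosome 14. The largest share of pairs was that of chromosome 7, 83.8%, with medians of 10.1% and 9.48% of autosomal counts, and the smallest that of chromosome 13, 18.3%, with 2.99% and 3.19%.

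**Figure D5:**
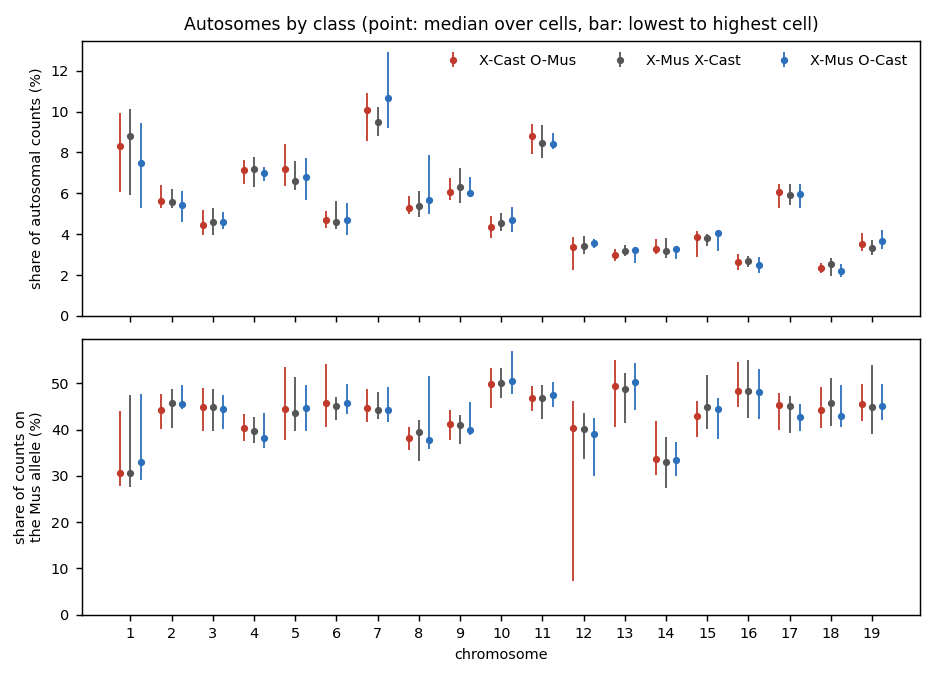
Share of autosomal counts (upper panel, %) and share of counts on the Mus allele (lower panel, %) for each autosome (x axis) in the 3 classes, with the median over cells as a point and the lowest and highest cell as the ends of the bar. Chromosome 1 has the lowest median Mus share, 30.6% in X-Cast O-Mus cells, followed by chromosome 14 with 33.8%. The long bar on chromosome 12 is the single X-Cast O-Mus cell with 7.18%.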

How the data were processed

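Per the labels and the methods of the study, single iPSCs of 1 plate were sorted, the mRNA of each was captured as in G&T-seq and sequenced as Nextera XT libraries. The authors deposited raw allelic counts in which every cell has a Cast and a Mus column, and their methods keep genes with at least 4 SNPs. For allelic counts of plate-based libraries the same methods name STAR 2.5.3a, an mm10 genome with masked SNPs and SNPsplit, with no separate account of this plate. Allelic counts leave out reads without a SNP, so levels depend on the SNPs of a gene.

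Both alleles were summed per cell and divided by the total of the cell, times 10000. Genes were placed on GRCm38 with GENCODE M21. Genes averaging 5 or more counts in the 38 cells were compared by the ratio of mean normalised counts, and 3 counts summed over its cells stood in for a class at 0. As a class has no replicate above the cell, no p-value was computed. Named genes outside chromosome 1 were the 15 higher and 15 lower genes with the most one-sided share of pairs among those past 2-fold with at most 25% of the sum from 1 cell, by the same rule 5 and 5 on chromosome 1, and list members with the extreme folds or described for their role. Members and the 30 lists were chosen with earlier results of these data known. The work used pandas 2.3.3, numpy 2.4.6, scipy 1.17.1 and matplotlib 3.10.9 under Python 3.11.15, and the scripts were tested on simulated data. Depth of 112335 counts in the shallowest of the 38 cells limits precision for low genes.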

Additional observations from a re-analysis of the deposited data

Results flagged for a closer look

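In the 9 X-Mus O-Cast cells, the cell highest for a gene, not the same cell for each gene, lay far from the others for 11 of the 50 named or germline genes by Dixon's ratio. The 1 in 20 groups that chance flags holds for normally distributed values and is not the rate for such sparse counts, where a gene with a count in 1 of the 9 cells, as Sycp1 and Fkbp6, is flagged by construction. The classes of 15 and 23 cells were too large for this rule. The highest value, with the next one in parentheses, was 5.76 for Bscl2 (2.70), 6.84 for Tmem250-ps (1.11), 3.91 for 9430038I01Rik (1.82) and 11.9 for Blnk (5.45) as normalised counts. For genes lower in X-Cast O-Mus cells it was 1.78 for Slc10a7 (0.833), 2.36 for Ubxn2a (0.889) and 1.53 for Cops7b (0.778). Among germline genes it was 0.707 for Sycp1 (0), 1.14 for Dazl (0.278), 1.01 for Syce1 (0.188) and 1.72 for Fkbp6 (0). For 9430038I01Rik, Blnk and Cops7b the highest cell was the one with the fewest counts and genes, 71682 and 2918.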

How the results depend on the processing

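No paired analysis was possible because all cells form 1 labelled group, their replicate numbers follow accession order and the values come from no test. All 40 named genes kept their direction under the 11 alternatives run for them, 6 of which were chosen after seeing the data (4 sets of cells left out, the highest cell of the higher class left out per gene, and a scale without mitochondrial genes). As these genes were chosen as the most one-sided ones past 2-fold in the same cells, a kept direction was to be expected. The counts of genes higher and lower depended on the limits. With a minimum mean of 1 count they were 1022 and 901 on chromosomes 2 to 19 and 63 and 79 on chromosome 1, with a minimum of 20 they were 28 and 23 and 4 and 2, and with a limit of 1.5-fold 612 and 477 and 47 and 58. With the mean of log-transformed values, which by construction compresses low levels, they were 4 and 5 and 1 and 1, and 8 of the 40 named genes stayed past 2-fold. The germline median was then −0.40 and 1 germline gene, Rpl10l, was at least 2-fold lower. Without the highest cell of each class per gene, 301 genes were lower on chromosomes 2 to 19 and 45 on chromosome 1, and the germline median was −1.33. This setting drops 1 of 15 cells in X-Cast O-Mus but 1 of 23 in X-Mus X-Cast. It therefore tends to lower the X-Cast O-Mus mean more by construction. The germline median was −1.10 with median-ratio size factors and −1.07 without the 3 X-Cast O-Mus cells with the fewest genes, which also left 11 higher genes on chromosome 1. Without the highest cell of the higher class per gene the germline median was −0.97, 34 of the 40 named genes stayed past 2-fold, and Zfp775 (−0.39) and Nr5a2 (−0.14) changed sign. The cause was not tested in these cases. Thinning every cell to 112335 counts gave 264 higher and 202 lower genes on chromosomes 2 to 19. Levels near 1 count per cell are the limit of what this depth resolves.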
